A study of Homo sapiens with 12 samples.

Results

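The 10 genes SOD1, CCNF, UBQLN2, VCP, SQSTM1, OPTN, TBK1, C9orf72, CHMP2B and VAPB are linked to amyotrophic lateral sclerosis (ALS), a disease of motor neurons, and encode proteins of protein quality control, autophagy and membrane traffic. They were chosen by symbol, with the brightest transcript cluster (the gene-level feature of the array) taken for each gene. Each symbol had 1 cluster, so the members are 10 of 67528 clusters, and 373 of 913055 exon and junction probe sets carried 1 of the 10 symbols. RNA came from the human neuroblastoma line SH-SY5Y and was hybridised to Affymetrix Human Transcriptome arrays 48 h after electroporation with an siRNA against MATR3 (3 samples) or a negative control siRNA (3 samples). All samples were of the same line, kept in medium with 15% serum and pulsed at 1100 V for 50 ms, and 100 ng of RNA was labelled per array. Nothing in the labels states whether each replicate was its own culture, so the p-values reflect the spread among these 6 samples alone, and that spread may be technical.

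Proteins that misfold are tagged with ubiquitin and then unfolded, carried to the proteasome or enclosed in autophagosomes that fuse with lysosomes. Ubiquilins and the ATPase VCP act on the proteasome branch, receptors such as SQSTM1 and OPTN link ubiquitin to the autophagosome membrane, and the kinase TBK1 phosphorylates those receptors. Motor neurons depend on these routes over long axons, and inherited variants in each of the 10 genes have been linked to ALS. MATR3 encodes Matrin3, a nucleic acid-binding protein of the nuclear matrix, and is itself linked to ALS, and the comparison asks whether the transcripts of the proteostasis genes moved when MATR3 was lowered.

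Array-wide facts that bear on the values are few. The MATR3 cluster, whose annotation also lists SNHG4, was lower by 1.14 ± 0.09 (log2, SD of 3 pair differences), which leaves 45.4% of the control signal. It read 12.25, 11.75 and 11.68 in control samples and 11.21, 10.53 and 10.52 after MATR3 siRNA, with no overlap. Over all kept clusters its limma adjusted p was 1 unblocked and 0.0547 with the array set block described below, which called 1 cluster there. Carrying more than 1 symbol, the MATR3 cluster was not in the fit over clusters with 1 symbol. In each group the replicate 1 array differed from the rest, the pair of them correlating with each other at r = 0.994 across kept clusters and with the other 4 at 0.977 to 0.984. Of the sympathoadrenal markers of the labelled line, 10 of the 11 measured were above the highest background probe set of the same array on all 6 arrays, TH being the exception. Of the fibroblast list this held for PDGFRA only among 6 measured genes, and for 0 of 3 Schwann, 0 of 5 macrophage and lymphocyte and 0 of 5 epithelial markers (CD68 cleared it on 2 arrays and KRT8 on 1). Among the line's own markers DBH, the noradrenaline-synthesising enzyme, was at 55.9% of control and CHGA, a granule protein, at 71.2%, each lower in 3 of 3 pairs, with groups apart for DBH only. The transcription factor ISL1 was at 145% and STMN2, a neuronal tubulin-binding protein, at 130%, each higher in 3 of 3 pairs, with groups apart for STMN2 but not ISL1. GATA3, at 115%, was higher in 3 of 3 pairs with groups apart. HAND2 (83.5%), ELAVL4 (82.2%) and CHGB (95.5%) were lower in 3 of 3 pairs, with groups overlapping. PHOX2A, GATA2 and TH differed in sign between pairs. The mean level of the fibroblast list was 5.58 to 5.91 in control and 5.87 to 5.96 in MATR3 siRNA samples. Within it PDGFRA was at 80.9% of control, lower in 3 of 3 pairs with groups overlapping. LUM (159%) and DCN (125%) were higher with groups apart, each value under the highest background probe set of its array. COL1A1, COL1A2 and POSTN differed in sign between pairs. The part of these marker differences in the results below was not tested. In bulk RNA, fewer cells of a type and less RNA per cell cannot be told apart.

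None of the 10 transcripts passed the test between MATR3 siRNA and control siRNA. The mean of the MATR3 siRNA samples lay between 88.5% of control for OPTN and 120% of control for C9orf72, with 5 genes above and 5 below control, where 61% of clusters with 1 gene symbol lay above. That background share turned with the scaling, to 48.2% after quantile normalization and 38.5% after median centring, with 4 of the 10 genes above in both. Fitted in limma without a block, 0 of the 10 passed at an adjusted p of 0.05 and 0 came under an unadjusted 0.05, beside 0 (0% of 33782) and 316 (0.935%) over all kept clusters. With the replicate 1 arrays entered as a set of their own (the array set block, a split seen in the data that no label gives) over the 15209 clusters with 1 gene symbol, 530 clusters (3.48%) passed, and 0 of the 10 did. The 530 became 0 to 21 when any 1 of the 6 samples was left out. The replicate block called 0 of the 10 and 0.0526% of clusters with 1 symbol, and array weights 0 of the 10 and 9.45% of all kept clusters. In the array set fit 2 of the 10, C9orf72 and OPTN, had an unadjusted p under 0.05, beside 23.8% of clusters. The groups overlapped in all 10 genes, while they did not overlap in 2.24% of clusters. The median difference of the 10 was 0.01, beside 0.04 over the clusters with 1 symbol.

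The replicate 1 samples stood apart by more than the siRNA difference in each of the 10 genes, and no label gives the source of this gap. The replicate 1 arrays exceeded the other 4 by 0.30 in SOD1 to 0.89 in OPTN (log2), and this gap was larger than the difference between MATR3 siRNA and control siRNA in 10 of 10. With no block the 95% interval of the difference ran from -0.30 to 0.82 for C9orf72 and from -0.82 to 0.73 for TBK1. With the array set block the intervals of all 10 genes lay between -0.32 and 0.44. A p that misses the threshold does not show that a transcript stayed the same. The intervals reflect the spread among these 6 arrays alone, which may be technical, and do not bound a change in other cultures. The narrower ones also rest on a block taken from the data.

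**Figure D1:**
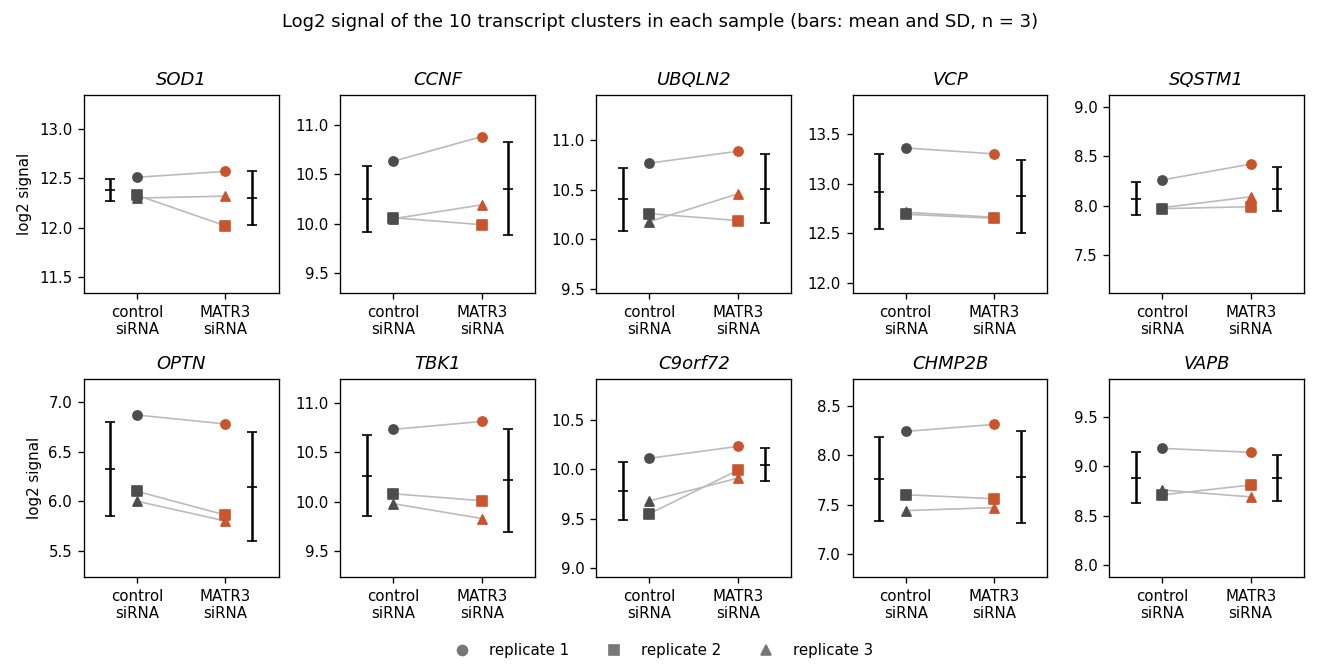
Log2 signal of the transcript cluster of each of the 10 genes in the 6 samples, with lines joining samples of the same replicate number and bars giving the group mean and SD (n = 3). Replicate 1 was the highest sample in both groups in all 10 genes, and the steepest lines are those of replicate 2 in C9orf72 (0.44) and SOD1 (-0.31).

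SOD1, the cytosolic superoxide dismutase whose variants misfold in inherited ALS, had log2 signals of 12.51, 12.33 and 12.30 in the control replicates 1 to 3 and 12.57, 12.02 and 12.32 after MATR3 siRNA. Only replicate 2 was clearly below its control, and the groups overlapped. On average the pairs differed by -0.08 ± 0.20 (SD, n = 3 pairs), with an array-set interval from -0.31 to 0.15. The two-sided exact permutation p was 0.8, where 0.1 is the smallest p that 3 samples against 3 allow.

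CCNF, cyclin F, is the substrate receptor of an SCF ubiquitin ligase that marks cell cycle proteins for the proteasome. Its signals were 10.63, 10.06 and 10.05 in control samples and 10.88, 9.99 and 10.19 after MATR3 siRNA. Averaged over pairs the difference was 0.11 ± 0.16 (SD, n = 3 pairs), higher in 2 of 3 pairs, with an interval from -0.09 to 0.30 in the array set fit. The exact permutation p was 0.7.

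UBQLN2, a ubiquilin that ferries ubiquitinated proteins to the proteasome, had control signals of 10.77, 10.26 and 10.18 and MATR3 siRNA signals of 10.89, 10.19 and 10.46. Replicates 1 and 3 were higher and replicate 2 lower, and the groups overlapped. The difference of 0.11 ± 0.18 (SD, n = 3 pairs) had an exact permutation p of 0.6 and an array-set interval from -0.09 to 0.31.

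VCP, the ATPase that pulls ubiquitinated proteins out of membranes and complexes, had pair differences of nearly the same size at gene level. Control signals were 13.36, 12.69 and 12.71 and MATR3 siRNA signals 13.30, 12.65 and 12.66. All 3 pairs were slightly lower after MATR3 siRNA, at 95.9%, 97.3% and 96.6% of control. The difference was -0.05 ± 0.01 (SD, n = 3 pairs), with adjusted p = 0.563 in limma with the array set block, an interval from -0.17 to 0.07 and an exact permutation p of 0.5. The mean over its 47 kept exon-level probe sets was further below control, at -0.16 ± 0.09, with 35 of the 47 below 0.

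SQSTM1, the autophagy receptor that gathers ubiquitinated cargo into condensates and binds ATG8-family proteins, had control signals of 8.26, 7.97 and 7.98. After MATR3 siRNA they were 8.42, 7.99 and 8.09. Each pair was higher after MATR3 siRNA, by 0.16, 0.02 and 0.11. The mean of 0.10 ± 0.07 (SD, n = 3 pairs) had adjusted p = 0.346 in limma with the array set block, an interval from -0.04 to 0.23 and an exact permutation p of 0.5. SQSTM1 and CHMP2B lay above the highest background probe set of the array on 5 of the 6 arrays, and 7 of the 10 genes did so on all 6.

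OPTN, optineurin, a receptor for damaged mitochondria and other cargo and a partner of TBK1, was lower in each pair. Its control signals were 6.87, 6.10 and 6.00 and its MATR3 siRNA signals 6.78, 5.86 and 5.80. The pairs differed by -0.09, -0.24 and -0.20, a mean of -0.18 ± 0.08 (SD, n = 3 pairs) or 88.5% of control. In limma the adjusted p was 0.155 with the array set block (unadjusted p = 0.0260), the interval ran from -0.32 to -0.03, and the exact permutation p was 0.5. OPTN lay under the highest background probe set on all 6 arrays, so the size of its difference is not exact. A difference of this size or larger, in either direction, was seen in 25.9% of clusters with 1 symbol.

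TBK1, the kinase that phosphorylates OPTN and SQSTM1 and also acts in interferon induction, had control signals of 10.73, 10.08 and 9.98 and MATR3 siRNA signals of 10.81, 10.01 and 9.83. It was higher in replicate 1 and lower in the other 2. The difference was -0.05 ± 0.12 (SD, n = 3 pairs), with an array-set interval from -0.24 to 0.14 and an exact permutation p of 0.9.

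C9orf72, a DENN-domain protein that works with SMCR8 and WDR41 in autophagy and lysosome traffic, showed the largest difference of the 10. Its control signals were 10.11, 9.55 and 9.68, and its MATR3 siRNA signals 10.23, 9.99 and 9.91. Every pair was higher after MATR3 siRNA, at 109%, 136% and 117% of control, and within replicates 2 and 3 both MATR3 siRNA values exceeded both controls. The control value of replicate 1 lay above the MATR3 siRNA values of replicates 2 and 3, so the whole groups overlapped. The mean difference was 0.26 ± 0.16 (SD, n = 3 pairs), a 1.20-fold higher signal. It did not pass in limma, where the adjusted p was 1 unblocked, 0.370 under the replicate block and 0.0576 under array weights. Over clusters with 1 symbol the array set block gave limma adjusted p = 0.105 (unadjusted p = 0.0111). The exact permutation p was 0.3. A difference of at least this size was seen in 12.2% of clusters with 1 symbol.

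The ALS-linked change in C9orf72 is an expansion of a GGGGCC unit in the region between its alternative transcription starts. Both RefSeq windows of 300 bases, from 250 before to 50 after a start, are shown because C9orf72 differed most and because the gene-level cluster gives 1 level for the transcripts of both starts. They are reference sequence of GRCh38.p14, not that of SH-SY5Y, on the minus strand, 5′ to 3′, and capitals mark the tandem GGGGCC units.
C9orf72 window at chr9:27573817-27574116: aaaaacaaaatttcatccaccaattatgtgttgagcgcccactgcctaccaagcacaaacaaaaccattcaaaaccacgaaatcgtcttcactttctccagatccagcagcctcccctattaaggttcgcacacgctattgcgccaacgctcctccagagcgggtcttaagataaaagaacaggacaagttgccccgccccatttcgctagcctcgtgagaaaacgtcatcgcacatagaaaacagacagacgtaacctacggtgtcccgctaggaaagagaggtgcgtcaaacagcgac
C9orf72 window at chr9:27573432-27573731: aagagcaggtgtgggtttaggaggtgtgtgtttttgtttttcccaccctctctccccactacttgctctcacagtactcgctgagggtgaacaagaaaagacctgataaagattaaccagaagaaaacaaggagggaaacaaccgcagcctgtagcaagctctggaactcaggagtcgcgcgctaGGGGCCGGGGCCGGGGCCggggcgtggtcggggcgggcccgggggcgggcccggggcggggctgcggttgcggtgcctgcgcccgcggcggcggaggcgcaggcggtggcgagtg
The second window holds 3 GGGGCC units in tandem and the first holds 0. Among 35116 such windows of all genes, 110 (0.313%) hold at least a tandem pair of GGGGCC units on either strand. The length of the repeat in SH-SY5Y was not analysed here.

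Windows were present for 9 of the 10 genes, 13 windows in all, and SOD1 was not among them. Each was searched on both strands for a pair of motifs of autophagy and stress genes. CACGTG, the core of the CLEAR element of lysosomal genes, was found in 1 of the 13, that of TBK1, and in 7.26% of all windows. TGACNNNGC, the core of the antioxidant response element, was found in 3 of the 13, those of CHMP2B, UBQLN2 and VCP, and in 13.3% of all windows. A match is a run of letters, not a bound site.

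CHMP2B, a subunit of the ESCRT-III complex that closes membrane necks at endosomes and autophagosomes, had control signals of 8.24, 7.60 and 7.44 and MATR3 siRNA signals of 8.31, 7.56 and 7.47. No pair differed by more than 0.07. The mean difference was 0.02 ± 0.06 (SD, n = 3 pairs), with an interval from -0.14 to 0.18 with the array set block and an exact permutation p of 0.9. Its sign turned under quantile normalization, at -0.02, and under median centring, at -0.06.

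VAPB, an endoplasmic reticulum membrane protein that tethers other organelles at contact sites, had control signals of 9.18, 8.71 and 8.76 and MATR3 siRNA signals of 9.14, 8.81 and 8.69. The pairs differed in sign, and the mean difference was -0.003 ± 0.09 (SD, n = 3 pairs), with an array-set interval from -0.14 to 0.14. The exact permutation p was 1.

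**Figure D2:**
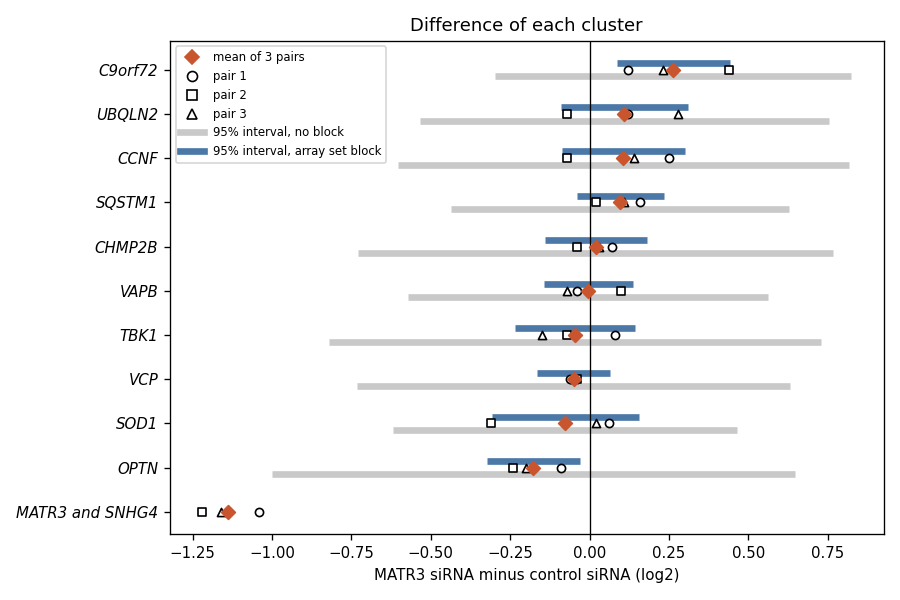
Difference between MATR3 siRNA and control siRNA (log2) for the 10 genes and, at the bottom, the cluster of MATR3 and SNHG4. Diamonds give the mean of 3 pairs, open symbols the single pairs, grey bars the 95% interval with no block and blue bars that with the array set block. The 10 means lie between -0.18 and 0.26, and the blue interval leaves out 0 for C9orf72 and OPTN before adjustment over all clusters, while the MATR3 cluster lies at -1.14.

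All 3 pairs had the same sign in 4 of the 10 genes, C9orf72 and SQSTM1 upward and OPTN and VCP downward. The same was true of 41.3% of all clusters with 1 symbol. The cluster most like C9orf72 over the 6 samples, among 15208 compared, was TMEM150C, a membrane protein gene, at Pearson r = 0.998. SLC36A1, a lysosomal amino acid transporter, followed at r = 0.996 and SSBP1, a mitochondrial DNA-binding protein, at r = 0.995. These 6 points share the gap between the replicate 1 arrays and the others, so the coefficients are descriptions.

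At exon level, 219 exon probe sets and 154 junction probe sets (probes that span a splice junction) carried the symbols of the 10 genes, and 285 of these 373 were at or above the median signal of all. In limma 0 of the 285 passed, as did 0 (0%) of all 456623 kept probe sets, and 6 had an unadjusted p below 0.05, beside 3.68% of all. With the array set block the smallest adjusted p among them was 0.366, and 32 of 285 had an unadjusted p under 0.05, beside 11.9% of all. The groups did not overlap in 11 member probe sets that were lower and 11 that were higher after MATR3 siRNA, beside 8.44% of all kept probe sets.

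The C9orf72 probe sets leaned upward more than the gene-level value. Of its 24 kept probe sets, 20 lay above 0, 2 below and 2 at 0, with a median of 0.34. Over its 15 exon probe sets alone, the mean difference was 0.36 ± 0.22 (SD, n = 3 pairs), and 14 of the 15 lay above 0. Over its 9 junction probe sets the mean was 0.37 ± 0.23, but the median was 0.07, with 6 of the 9 above 0. In 4 of the 24 kept C9orf72 probe sets, every MATR3 siRNA value lay above every control value. Groups were apart, in either direction, in 8.44% of all kept probe sets. The 4 sets share a gene and the same arrays, so they do not count as separate results. The exon set PSR09013017 read 9.25, 9.41 and 8.89 in control and 9.49, 10.37 and 10.20 after MATR3 siRNA, a difference of 0.84 ± 0.55. The exon set PSR09013003 read 12.49, 11.91 and 11.94 in control and 12.72, 12.86 and 12.59 after MATR3 siRNA, a difference of 0.61 ± 0.36. In both sets the difference was smaller in replicate 1 than in replicates 2 and 3. The junction set JUC09007079 read 13.03, 12.23 and 12.25 in control and 13.27, 13.58 and 13.09 after MATR3 siRNA, a difference of 0.81 ± 0.56. The junction set JUC09007087 differed by 1.19 ± 1.09, with its control of replicate 2, at 9.96, far under the other controls at 11.94 and 11.76. The smallest adjusted p of any C9orf72 probe set in limma with the array set block was 0.389.

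**Figure D3:**
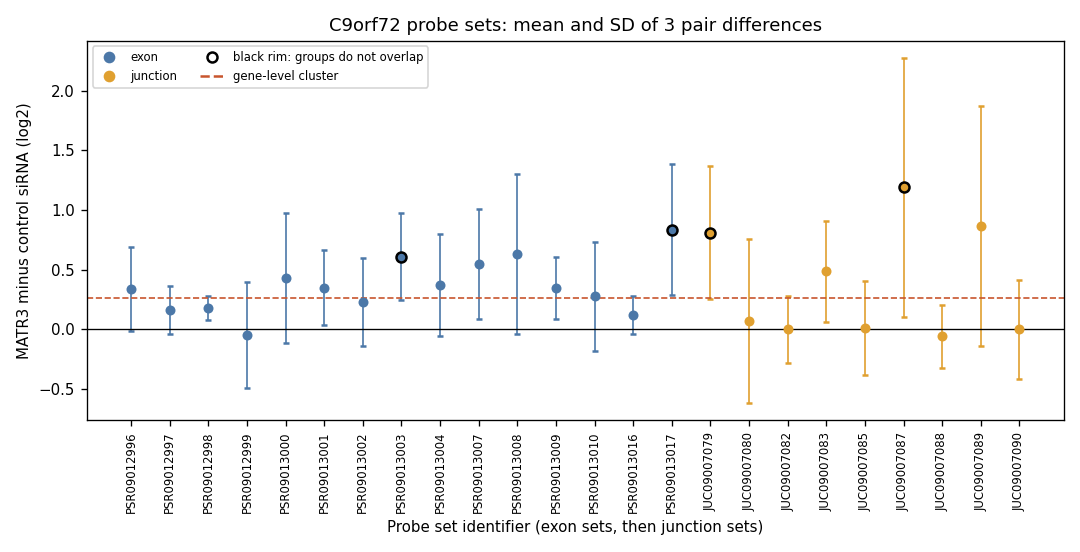
Mean and SD of the 3 pair differences (log2, MATR3 siRNA minus control siRNA) for the 24 kept C9orf72 probe sets, 15 of exons and 9 of junctions, ordered by identifier within each kind. Nearly all exon sets lie above 0 and around the dashed gene-level difference of 0.26, and the 4 rimmed sets are those whose groups do not overlap.

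OPTN probe sets leaned downward, with 23 of 29 below 0 and a median of -0.32. Its exon probe sets had a mean difference of -0.32 ± 0.17 (SD, n = 3 pairs) and its junction probe sets -0.36 ± 0.22. The junction set JUC10000567 read 8.49, 8.09 and 8.12 in control and 7.65, 6.23 and 6.70 after MATR3 siRNA, and was the lowest OPTN set at -1.37 ± 0.51. The groups did not overlap there, and its adjusted p of 0.366 in limma with the array set block was the smallest of any member probe set. The values 6.23 and 6.70 lie under the highest background of their arrays (6.95 and 6.83). The control value 8.49 does so too (8.75), so the size of this difference is not exact. The highest OPTN set, JUC10000557, differed by 1.25 ± 2.06, a spread wider than the difference. Its control of replicate 3, at 4.97, lay under the highest background of that array (6.48).

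In SOD1 the lowest probe set, JUC21000411, read 14.08, 14.19 and 14.27 in control and 13.93, 12.28 and 12.58 after MATR3 siRNA. The pairs differed by -0.15, -1.91 and -1.69, a mean of -1.25 ± 0.96 (SD, n = 3 pairs), and the groups did not overlap. The highest SOD1 set, JUC21000406, lay at 0.36 ± 0.51.

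CCNF had 1 probe set that passed a test in an alternative. The junction set JUC16000655 read 13.40, 12.89 and 13.03 in control and 13.55, 10.42 and 11.07 after MATR3 siRNA, a difference of -1.43 ± 1.39 (SD, n = 3 pairs). Relative to the other CCNF probe sets of the same sample (the splicing index), it differed by -2.18 when MATR3 siRNA replicate 1 was left out, with adjusted p = 0.0484 in limma, and it did not pass with all 6 samples. That alternative called 411 of 360570 probe sets over all genes, against 0 with all samples. It has no block, so it leaves a replicate 1 array in the control group only. The sample left out is also from the 1 pair in which this set was higher after MATR3 siRNA. The highest CCNF set, JUC16000659, lay at 0.65 ± 0.45, with each value under the highest background probe set of its array.

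The exon and junction probe sets of SQSTM1 are given apart, and their difference was not tested. Its 28 exon sets averaged 0.06 ± 0.17 (SD, n = 3 pairs), and its 19 junction sets averaged -0.41 ± 0.47 with a median of -0.22. Of the 19, 15 lay within 2-fold, and the junction average was above 0 in replicate 1, at 0.13. The junction set JUC05007973 read 7.19, 6.45 and 8.20 in control and 7.52, 3.01 and 4.27 after MATR3 siRNA, a difference of -2.35 ± 2.33. The values 3.01 and 4.27 lie under the highest background of their arrays (6.95 and 6.83). The control values 7.19 and 6.45 do so too (8.75 and 6.87), so the size of this difference is not exact. Replicate 1 was higher by 0.33 in this set, while the pairs of replicates 2 and 3 differed by -3.44 and -3.93. The highest SQSTM1 set, JUC05007954, lay at 0.61 ± 0.29.

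The other genes had wide extremes and none passed. In TBK1 the lowest set, JUC12004000, lay at -1.24 ± 1.93 (SD, n = 3 pairs) and the highest, JUC12004002, at 0.84 ± 0.77. In VCP they were JUC09007456 at -1.14 ± 1.07 and PSR09013783 at 0.47 ± 0.36, and in UBQLN2 PSR0X004464 at -1.04 ± 1.12 and JUC0X002148 at 0.72 ± 0.62. In CHMP2B they were JUC03004489 at -0.82 ± 2.08 and JUC03004488 at 1.10 ± 1.28, and in VAPB PSR20006208 at -0.68 ± 0.90 and PSR20006215 at 0.57 ± 0.39. In JUC12004000, JUC03004489 and JUC03004488 some values lay under the highest background of their arrays, so those differences are not exact.

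The low values gathered in junction probe sets and in replicates 2 and 3. At least 2-fold lower means were found in 12 of the 114 kept junction sets of the 10 genes (10.5%) and in 1 of the 171 kept exon sets (0.585%). Over all genes the shares were 5.04% of junction sets and 1.10% of exon sets. In single pairs, 2 of the 114 junction sets were at least 2-fold lower in replicate 1, 27 in replicate 2 and 22 in replicate 3. Over all genes the same shares of junction sets were 3.13%, 15.6% and 14.9%, so the unevenness between the pairs was also present outside the 10 genes. The part of probe type and array set in these values was not tested. The splicing index called 0 member probe sets in limma with all 6 samples, at no block (smallest adjusted p = 0.922) and with the array set block (smallest adjusted p = 0.536), with 25 at an unadjusted p under 0.05 in the latter, beside 9.28% of 360570 probe sets.

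**Figure D4:**
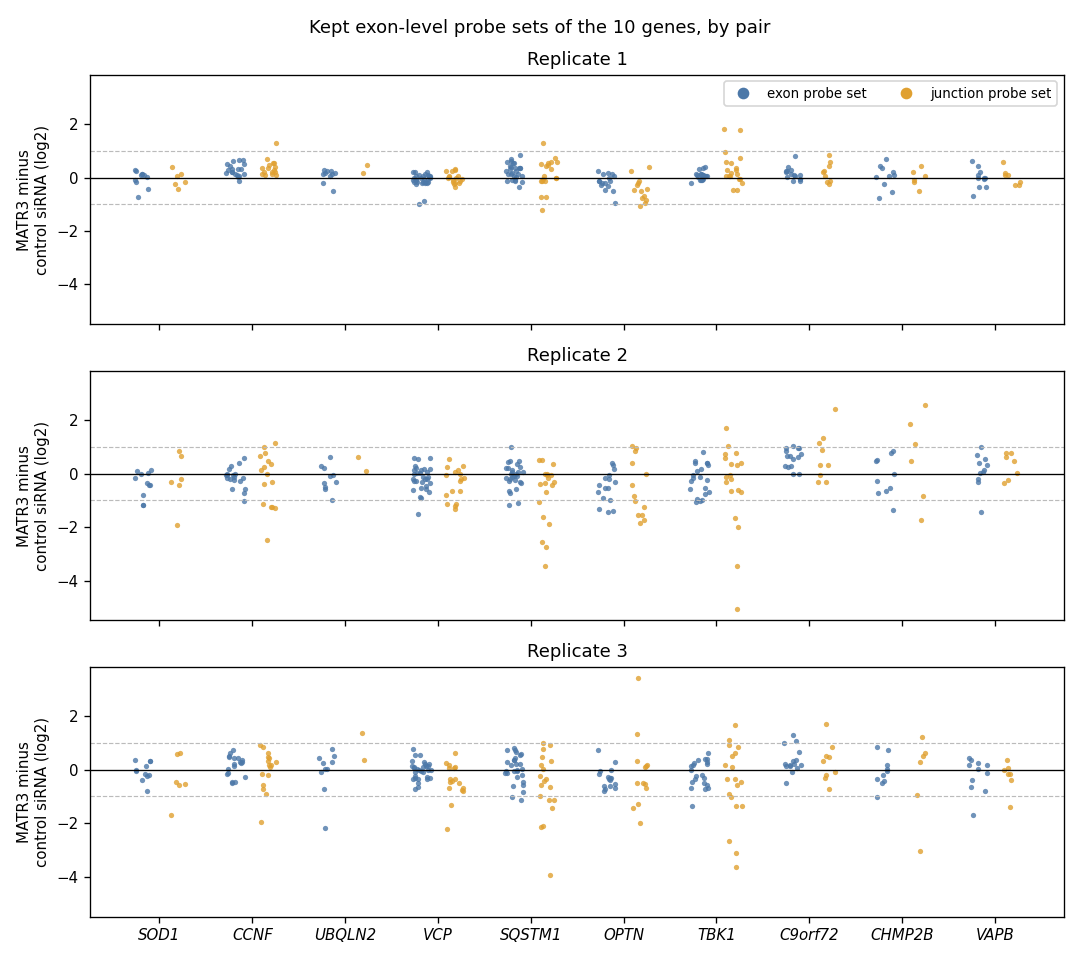
Differences between MATR3 siRNA and control siRNA (log2) in each of the 3 pairs for the 285 kept probe sets of the 10 genes, blue for exon and amber for junction sets, with dashed lines at 2-fold. Replicate 1 lies mostly inside the lines, while replicates 2 and 3 hold 27 and 22 junction sets at least 2-fold lower.

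Around the 10 genes, 13 lists of partners and pathway neighbours held 156 genes with a kept cluster. With no block 0 passed in limma. With the array set block 1 rose and 0 fell (0.641%, beside 3.48% of clusters with 1 symbol), and the median difference was 0.02, beside 0.04. An unadjusted p under 0.05 was found there in 7 of 18 autophagosome initiation, 5 of 10 heat shock and 4 of 14 ESCRT genes. It was found in 4 of 14 VAP, 4 of 15 other ALS-linked, 3 of 9 SOD1 partner and 2 of 12 autophagy receptor genes. The TBK1 complex list had 2 of 8, the C9orf72 complex list 2 of 9 and the cyclin F list 2 of 10. The ubiquilin list had 1 of 10, the NRF2 list 1 of 9 and the VCP cofactor list 1 of 18. Over all clusters with 1 symbol the share was 23.8%. The gene that rose was ERBB4, a neuregulin receptor kinase linked to ALS. It read 5.67, 5.20 and 5.23 in control and 6.28, 6.09 and 5.84 after MATR3 siRNA, a difference of 0.70 ± 0.16 (SD, n = 3 pairs) with adjusted p = 0.0223 in limma. The groups did not overlap, and each value lay under the highest background probe set of its array. The call was lost when any 1 of the 6 samples was left out, and with the replicate block over clusters with 1 symbol, where limma gave adjusted p = 0.0623. The other 14 kept ALS-linked genes outside RNA binding did not pass.

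The lists nearest to the autophagy receptors, their kinase and C9orf72 held 0 calls. Of 12 autophagy receptors and ATG8-family proteins 0 passed, 8 lay above 0, and the brightest were GABARAP, an ATG8-family protein, at 0.16 ± 0.10 (SD, n = 3 pairs) and BNIP3L, a mitophagy receptor, at -0.17 ± 0.10. Of 18 autophagosome initiation and conjugation genes 0 passed and 12 lay above 0. The brightest were ATG13, of the ULK1 kinase complex, at 0.32 ± 0.13 and PIK3C3, the lipid kinase of autophagy, at 0.40 ± 0.17, both higher in 3 of 3 pairs. Of 8 kept genes of TBK1 kinase complexes 0 passed and 7 lay below 0, with OTULIN, a linear ubiquitin protease, at -0.04 ± 0.09 and TRAF3, a signalling adaptor, at -0.02 ± 0.20. Of 9 genes of the C9orf72 complex and Rab partners 0 passed and 8 lay above 0, with RAB7A, the late endosome GTPase, at 0.28 ± 0.14 (groups apart, adjusted p = 0.0770 in limma with the array set block) and RAB8A, a secretory GTPase, at -0.08 ± 0.18.

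The ubiquitin and membrane lists gave the same count of calls. Of 18 VCP cofactors 0 passed, with FAF1 at 0.02 ± 0.08 (SD, n = 3 pairs) and PLAA at 0.09 ± 0.07. Of 10 ubiquilins and proteasome genes 0 passed, with PSMC2, a proteasome ATPase, at -0.06 ± 0.04 and UBQLN1, the paralog of UBQLN2, at 0 ± 0.07. Of 14 genes of ESCRT-III, its ATPases and earlier ESCRT complexes 0 passed, with CHMP2A, the paralog of CHMP2B, at 0 ± 0.22 and IST1, an ESCRT-III-like subunit, at 0.15 ± 0.05. Of 14 VAP proteins and contact partners 0 passed, with the lipid transfer protein OSBPL8 at -0.09 ± 0.13 and the phosphatase PTPN1 at -0.02 ± 0.10.

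The lists on cyclin F, redox defence and chaperones held no call either. Of 10 cyclin F ligase and substrate genes 0 passed, with NUSAP1, a spindle protein, at -0.12 ± 0.15 (SD, n = 3 pairs) and EXO1, an exonuclease, at 0.02 ± 0.12. Of 9 SOD1 partners and peroxide defence genes 0 passed, with the peroxiredoxins PRDX1 at -0.03 ± 0.05 and PRDX3 at -0.02 ± 0.05. Of 9 NRF2 genes 0 passed, with the ferritin chain FTL at 0.12 ± 0.32 and TALDO1, a pentose phosphate enzyme, at -0.17 ± 0.29. Of 10 heat shock and chaperone-assisted autophagy genes 0 passed, with the chaperones HSP90AA1 at -0.18 ± 0.06 and HSPB1 at -0.24 ± 0.19.

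**Figure D5:**
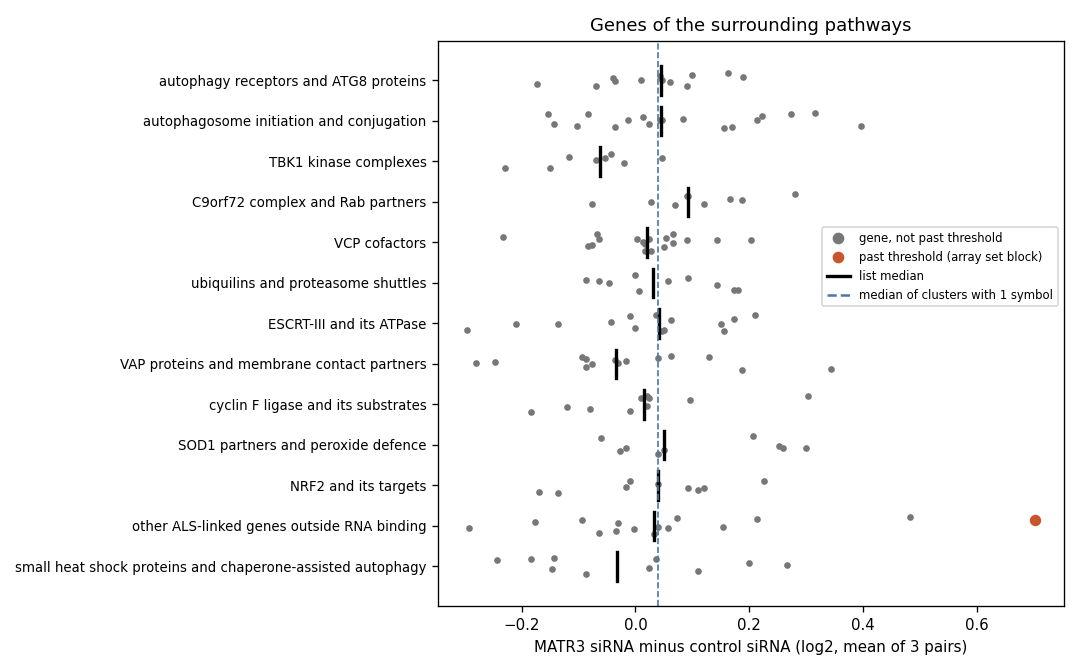
Mean pair difference (log2, MATR3 siRNA minus control siRNA) of each kept gene in the 13 lists, with a black bar at the list median and a dashed line at the median of clusters with 1 symbol, 0.04. The list medians lie between -0.06 and 0.09, and ERBB4, at 0.70, is the 1 gene past the threshold with the array set block.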

How the data were processed

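The deposited values are log2 signals that the authors made with RMA in Affymetrix Expression Console, per the submitters' processing notes; software version, annotation and genome build are not given in the sources used here. All 2995 features found in both tables (gene level and exon level) had identical values, so both tables were taken to summarise 1 set of 6 arrays. The arrays do not share 1 distribution (cluster medians 4.80 to 5.16), and values were tested as deposited. Precision is limited by how many arrays there are. Symbols came from the platform annotation, updated through RefSeq gene identifiers or unique older symbols. Of 67528 clusters, 23781 had 1 symbol, 1543 several and 42204 none.

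Clusters (33782) and probe sets (456623) at or above the median of all were compared with limma 3.58.1 (lmFit and eBayes, two-sided, Benjamini-Hochberg) in R 4.3.3, 3 samples against 3 with no block. The splicing index is a probe set's log2 value minus the mean of the kept probe sets of its gene, for genes with at least 5. Replicate numbers are shared by both groups in the labels. Same-numbered samples deviated together (r = 0.696, 0.327 and 0.527 over kept clusters, each over 0.1), and the numbers were treated as pairs. In replicate 2 a sample correlated better with another number. The gap of the replicate 1 arrays enters all these deviations, so the r values cannot show that replicates 2 and 3 are true pairs. The SDs and signs of the pair differences therefore rest on the numbers in the labels. The array set block and the other alternatives are given below. The code was tested on simulated data. The members, lists and models were chosen with earlier results of these data known. All 10 members are named. In each list the called genes of the array set fit are named, or else the 2 brightest, and for each member the highest and lowest probe set and any called in an alternative. Figures were drawn with matplotlib 3.10.9, and 23 background probe sets served as the background.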

Additional observations from a re-analysis of the deposited data

How the results depend on the processing

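Of the 10 genes 0 were called under any gene-level alternative, and C9orf72 stayed above 0 in each, with 0.148 to 0.428 when 1 sample was left out. All clusters called went from 0 to 1 with the array set block, 1 after quantile normalization, 3194 with array weights, 8 with the replicate block over clusters with 1 symbol, and 530 with the array set block there, or 385 after quantile normalization and 205 after median centring (170 and 58 of them higher, against 316 of the 530). Leaving out 1 sample gave 0 to 21. Of the pathway list genes, 3 were called with array weights and 1 with the array set block over clusters with 1 symbol, under each scaling; that 1, ERBB4, was lost when any 1 sample was left out. The replicate block called 0 of all kept clusters, 0 probe sets and 1 splicing index probe set of no member. Over clusters with 1 symbol it called the 8 above and 0 pathway list genes, losing ERBB4 (adjusted p = 0.0623 in limma). It called 0 members in each of these fits. Splicing index calls ranged from 0 to 411 without 1 sample, and those of members from 0 to 1, the 411 and the 1 both without MATR3 siRNA replicate 1.

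Directions of small differences turned. Without 1 sample the range was -0.21 to 0.065 for SOD1, -0.157 to 0.298 for CCNF, -0.0783 to 0.293 for UBQLN2, -0.265 to 0.17 for VCP, -0.03 to 0.192 for SQSTM1, -0.493 to 0.0967 for OPTN, -0.343 to 0.187 for TBK1, -0.245 to 0.26 for CHMP2B and -0.133 to 0.145 for VAPB. With the array set block and 1 sample left out, signs turned in SOD1 (0.0286), TBK1 (0.0229), CHMP2B (-0.005 and -0.0186) and VAPB (0.00571 to 0.0257, with 0.015 between). Leaving out a replicate 1 sample with no block leaves the groups unequal in array set. CHMP2B turned to -0.0239 after quantile normalization and -0.0567 after median centring, with or without the array set block, and to -0.0404 with array weights, which took VAPB to 0.0161. SQSTM1 turned to -0.132 as the mean of its exon-level probe sets. Chosen after seeing the data, means over exon sets alone turned UBQLN2 to -0.058 (8 of its 10 exon sets lay above 0 and PSR0X004464 at -1.04) and CHMP2B to -0.047, and means over junction sets alone turned SQSTM1 to -0.412 and VAPB to 0.031. VCP moved from -0.05 to -0.161 as the mean of its exon-level probe sets. The cause of these changes was not tested. The median over clusters with 1 symbol moved from 0.04 to -0.01 after quantile normalization and -0.04 after median centring.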
